A study of Arabidopsis thaliana with 51 samples.

Results

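PYK10, BGLU21, BGLU29 and BGLU40 are 4 genes of Arabidopsis thaliana that encode beta-glucosidases, enzymes that cut glucose from small plant compounds. They were taken as every probe that the array's gene table assigns to 1 of these names. That gave 4 probes, 1 per gene, out of 27600 probes in all and 1791 genes with a name, and no further probe lists a member among several genes. The survey held 51 two-colour arrays of total RNA. On 45 of them 1 of 17 organ groups was compared with cultured cells, which served as a common reference. The other 6 arrays compared light with dark directly in cotyledon (the seed leaf), hypocotyl (the seedling stem) and root, with 2 arrays each.

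The organ groups were light and dark root, light and dark hypocotyl, light and dark cotyledon, rosette leaf, cauline leaf (the leaf on the flowering stem), stem, germinating seed, sepal, petal, stamen, pistil labelled 1DBP and 1DPP, and silique, the seed pod, labelled 3DPP and 8DPP. Groups had 2 to 4 arrays. The labels do not spell out DBP and DPP, and they give no accession, plant age, light regime or growth condition. They do not say whether arrays of a group came from separate plants, so p-values measure the spread between arrays, which may be technical.

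Plants store glucosylated defence compounds apart from the enzymes that release their active part, and damage brings both together. In Arabidopsis and its relatives PYK10 is the main protein of ER bodies, spindle-shaped swellings of the endoplasmic reticulum that are common in roots and seedlings. PYK10 acts on indole glucosinolates, sulphur-containing defence compounds, and forms large complexes with jacalin-related lectins when tissue is crushed. BGLU21 is a close relative of PYK10 that releases the coumarin scopoletin from its glucoside in roots.

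PYK10 is locus AT3G09260 and BGLU21 is AT1G66270, whose next gene is BGLU22. BGLU22 is a near-identical copy, so RNA of both genes may have bound the BGLU21 probe. BGLU29 is AT2G44470, in a run of related genes with BGLU28, BGLU17 and PEN2 as neighbours, and BGLU40 is AT1G26560. The neighbours and locus names come from the RefSeq annotation of assembly TAIR10.1.

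Values are log2 ratios after the median of each array was set to 0. The labels name both channels of an array but not which one is the numerator. Ratios were read as organ over cultured cells, and light over dark on the direct cotyledon and root arrays; this direction is likely, not known. The organ was in channel 1 for rosette leaf, cauline leaf, stem and 1 light root array, and in channel 2 for all others, so dye and organ cannot be told apart except in light roots. Differences came from a moderated linear model (limma) over all 51 arrays, with Benjamini-Hochberg adjustment over all probes tested in that comparison. To be called, a difference needed 2-fold or more and an adjusted p below 0.05. A probe was tested where each group compared had at least 2 values, and errors after ± are standard errors of that fit.

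Arrays held values for 7410 to 26657 probes, and their medians before centring ran from -0.60 to 1.05. The lowest count was on silique 8DPP array 3, which has no value for PYK10, BGLU21 or BGLU40. The light hypocotyl arrays held 19267 and 19326 values. The 4 root marker genes, among them peroxidases, had their highest summed level in light root, at 25.7, then dark root at 22.7 and dark hypocotyl at 17.9. The summed level of 7 photosynthesis genes was highest in rosette leaf, at 48.2, and lowest in the roots, at 4.28 and 4.59. Stamen led the 3 pollen genes at 17.4, and the ovule gene INO stood at 3.05 to 3.61 in both pistil groups and silique 3DPP.

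PYK10 was high in roots and dark-grown seedling organs and very low in pistil, petal, sepal and stem. It had values on 34 of the 45 arrays, in 15 of the 17 groups. Of 14 groups tested against cultured cells it was higher in 4, lower in 9 and not called in 1. Large shares of all probes were called in these comparisons too, so a call against cultured cells is a common event, and the shares are given beside the members' values. Spread among preparations of cultured cells is not part of these tests.

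The light root arrays gave PYK10 at 4.08 and 4.78, the dark hypocotyl arrays at 3.40 and 3.10, and the dark root arrays at 2.32 and 2.11. The 3 dark cotyledon arrays stood at 1.63, 0.99 and 1.10. All 4 groups lay above cultured cells. Their arrays did not overlap, but with 2 or 3 arrays per group this says little. The share of all probes that separate in the same way is not given here. The mean in light root was 4.43 ± 0.44 (n = 2, limma adjusted p = 5.99e-09), a 21.5-fold difference, where 18.5% of all probes were called higher. In dark hypocotyl it was 3.25 ± 0.44 (adjusted p = 5.94e-07), where 19.6% were called higher, and in dark root 2.22 ± 0.44 (adjusted p = 0.000172), where 13.2% were. Dark cotyledon reached 1.24 ± 0.36 (n = 3, adjusted p = 0.00505), where 20.1% were called higher; without its array 1 the mean was 1.05 and the adjusted p 0.0557.

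The light cotyledon arrays, at -0.11 and -0.47, were close to cultured cells, with a mean of -0.29 ± 0.44 (limma adjusted p = 0.655). Rosette leaf had a single PYK10 value, -1.21, and was not tested. Germinating seed and light hypocotyl had no PYK10 value on any array, so nothing can be said of the gene in those organs.

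In stamen the 3 arrays gave PYK10 at -5.62, -5.90 and -3.34, and the third was also the highest stamen array for BGLU21. The cauline leaf arrays with a value stood at -6.51 and -6.17, and those of stem at -6.38 and -8.31. Sepal gave -7.30 and -7.13, and petal -7.30 and -7.36. All these organs were called lower, with means from -4.95 ± 0.36 in stamen to -7.35 ± 0.44 in stem. The share of all probes called lower was 25.1% in stamen, 16.4% in cauline leaf, 15.7% in stem, 28.8% in sepal and 22.8% in petal. From sepal downwards the arrays of neighbouring groups in the order overlapped.

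The lowest PYK10 levels were in the pistil. Its mean was -8.59 ± 0.44 in pistil 1DBP (386-fold below cultured cells, limma adjusted p = 8.31e-15) and -8.56 ± 0.31 in pistil 1DPP (adjusted p = 2.18e-18), where 18.9% and 20.1% of all probes were called lower. Both pistil 1DBP arrays, at -8.61 and -8.57, and the 4 pistil 1DPP arrays, at -8.57, -8.24, -9.55 and -7.90, corresponded to deposited ratios of only 0.002 to 0.007. The deposited ratios carry steps of 0.001. A step is 0.21 to 0.74 wide on the log2 scale at these ratios, so differences among the pistil arrays are barely resolved. In bulk organs, fewer expressing cells and less RNA per cell cannot be told apart.

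**Figure D1:**
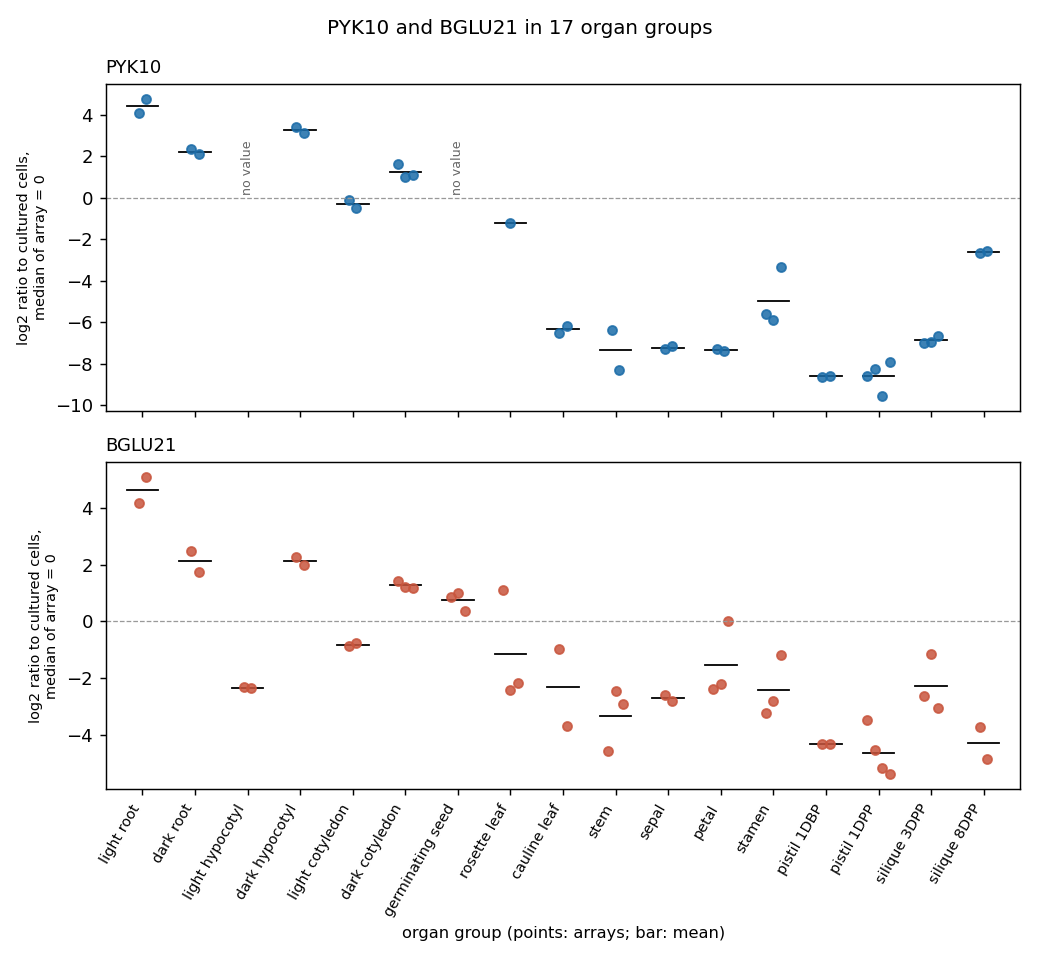
Log2 ratio to cultured cells, with each array's median at 0, for PYK10 (upper) and BGLU21 (lower) in 17 organ groups; points are arrays and bars are means. Light root is the highest group for both genes, at 4.43 and 4.63, and PYK10 spans a wider range down to -8.59 in pistil 1DBP.

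BGLU21 had values in all 17 groups, on 43 arrays, and was called higher than cultured cells in 4 and lower in 10. The 4 were those in which PYK10 was called higher. Light root was again the highest, with arrays at 4.17 and 5.09 and a mean of 4.63 ± 0.65 (limma adjusted p = 5.23e-07). The dark hypocotyl arrays stood at 2.26 and 2.0, the dark root arrays at 2.49 and 1.74, and the dark cotyledon arrays at 1.42, 1.20 and 1.19. Dark hypocotyl and dark root overlapped each other.

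The calls for dark-grown organs rested on few arrays. Dark cotyledon averaged 1.27 ± 0.53 (adjusted p = 0.0464) and was not called without any 1 of its arrays, with adjusted p from 0.119 to 0.145. Dark hypocotyl averaged 2.13 ± 0.65 (adjusted p = 0.0065), with adjusted p = 0.0969 without its array 1 and 0.0561 without array 2. Dark root averaged 2.11 ± 0.65 (adjusted p = 0.00923), and 1.74 with adjusted p = 0.189 without its array 1.

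Germinating seed, which had no PYK10 value, gave BGLU21 at 0.86, 1.01 and 0.39, a mean of 0.75 ± 0.53 that was not called (limma adjusted p = 0.214). Without centring it was 1.75 and called (adjusted p = 0.00227). The light hypocotyl arrays lay close together at -2.29 and -2.35, and their mean of -2.32 ± 0.65 was called lower (adjusted p = 0.00334), where 20.7% of all probes were; without array 2 the adjusted p was 0.0519. Light cotyledon, at -0.87 and -0.77, was not called.

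In leaves and flowers BGLU21 was low and scattered. The rosette leaf arrays gave 1.12, -2.41 and -2.16, so array 1 stood above cultured cells and the others below, and the group was not called, where 41.6% of all probes were called in either direction. Without array 1 the rosette mean was -2.29 and called (limma adjusted p = 0.00106), and without centring it was -1.38 (adjusted p = 0.0198). Cauline leaf gave -0.95 and -3.66; its mean of -2.30 ± 0.65 (adjusted p = 0.00363) became -0.95 (adjusted p = 0.424) without array 3. In petal, with arrays at -2.37, -2.21 and 0.03, the mean of -1.52 ± 0.53 (adjusted p = 0.0162) was not called without array 1 (-1.09, adjusted p = 0.185) or array 2 (-1.17, adjusted p = 0.157). Stem, with arrays at -4.57, -2.46 and -2.90, averaged -3.31 ± 0.53 (adjusted p = 3.07e-06). Stamen arrays stood at -3.20, -2.80 and -1.19 and sepal arrays at -2.59 and -2.81, and both groups were called lower.

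Across the 15 groups with both genes, the group means of PYK10 and BGLU21 had a Pearson correlation of 0.884, as a description over points that share the reference and, within a group, the arrays. The other pairs of members lay between -0.19 and 0.05.

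Both root groups were then set against the other organs. Over the 12 other groups in which PYK10 had at least 2 values, a set chosen after the data were seen, its mean was 7.96 ± 0.33 higher in roots (limma adjusted p = 3.23e-16), where 11.5% of all probes tested were called higher. BGLU21 was 5.47 ± 0.49 higher over the same groups (adjusted p = 7.01e-11), and 5.23 ± 0.48 higher over all 15 other groups (adjusted p = 1.22e-10), where 11.9% were called higher. BGLU40 was lower in roots than in those 12 groups, by -1.17 ± 0.31 (adjusted p = 0.00334), where 8.25% of all probes were called lower. Those 12 groups leave out germinating seed, where BGLU40 had its lowest mean, -4.57. The BGLU40 difference therefore does not hold for roots against all other organs, which was not tested for this gene. BGLU29 was not tested, because some of those groups had 1 value.

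Seedling organs kept in the same light were also compared with each other. Light root exceeded light cotyledon by 4.72 ± 0.62 for PYK10 (limma adjusted p = 2.16e-06) and by 5.45 ± 0.92 for BGLU21 (adjusted p = 3.07e-05), where 14.6% of all probes were called higher. BGLU40 went the other way, with a difference of -2.01 ± 0.58 in light root against light cotyledon (adjusted p = 0.0101), where 8.18% were called lower. That BGLU40 call was lost without light cotyledon array 2 (-1.95, adjusted p = 0.0663) or without light root array p1 (-2.0, adjusted p = 0.0671), and with light root as 1 sample (adjusted p = 0.0565). BGLU21 was 6.95 ± 0.92 higher in light root than in light hypocotyl (adjusted p = 1.55e-06), where 10.7% of all probes were called higher.

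In the dark the root groups were not called apart from the other seedling organs for PYK10 or BGLU21. For PYK10 the difference of dark root against dark hypocotyl was -1.03 ± 0.62 (95% interval -2.30 to 0.24, limma adjusted p = 0.365), and against dark cotyledon 0.98 ± 0.56 (-0.19 to 2.14, adjusted p = 0.31). For BGLU21 these differences were -0.02 ± 0.92 and 0.84 ± 0.84, with adjusted p of 0.995 and 0.611. PYK10 was called lower in dark cotyledon than in dark hypocotyl, by -2.01 ± 0.56 (adjusted p = 0.0145), where 5.79% of all probes were called lower. It was not called without dark hypocotyl array 1 (-1.86, adjusted p = 0.126) or array 2 (-2.16, adjusted p = 0.0669). BGLU40 was lower in dark root than in dark hypocotyl, by -2.62 ± 0.58 (adjusted p = 0.00467), where 1.81% of all probes were called lower. It was not called without dark root array 2 (-2.32, adjusted p = 0.0622) or dark hypocotyl array 2 (-2.31, adjusted p = 0.077).

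Among floral organs PYK10 was 2.32 ± 0.47 higher in stamen than in petal and sepal together (limma adjusted p = 0.0015), where 5.11% of all probes were called higher. The difference was 1.51 without stamen array 3 and stayed called, but it was not called with these arrays compared alone (adjusted p = 0.109). BGLU21 was lower in pistil 1DBP than in petal and sepal, by -2.21 ± 0.77 (adjusted p = 0.0236), where 11.5% of all probes were called lower. It was not called in 4 of the 7 refits that each left out 1 array: those without either pistil 1DBP array (adjusted p of 0.132 and 0.106), without petal array 3 (-1.82, adjusted p = 0.0528) and without sepal array 1 (adjusted p = 0.0507). PYK10 differed by -1.32 ± 0.53 in the same comparison and was not called (adjusted p = 0.055). Other settings did call it: -1.84 without centring (adjusted p = 0.00984), -1.45 centred on named probes (adjusted p = 0.034), -2.69 scaled to a common spread (adjusted p = 2.12e-05), and the same value with these arrays compared alone (adjusted p = 0.0201). No member was called between dark root and dark cotyledon, light cotyledon and light hypocotyl, cauline and rosette leaf, petal and sepal, or stem and leaves, with 2 to 4 members tested in each. The share of all probes called in these comparisons was 12.3%, 29.5%, 4.11%, 7.39% and 16.4%, in that order.

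From pistil to silique PYK10 climbed from -8.56 in pistil 1DPP to -6.86 in silique 3DPP and -2.59 in silique 8DPP. The silique 3DPP arrays stood at -6.98, -6.97 and -6.64, and the 2 silique 8DPP arrays with a value at -2.64 and -2.54. Against cultured cells 19.5% of all probes were called lower in silique 3DPP and 19.7% in silique 8DPP. Silique 8DPP was 4.27 ± 0.56 higher than silique 3DPP (19.3-fold, limma adjusted p = 1.3e-05), where 7.92% of all probes were called higher. Against pistil 1DBP silique 8DPP was 6.0 ± 0.62 higher (adjusted p = 2.18e-07), where 9.33% were called higher.

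The call of the earlier step was fragile. Silique 3DPP exceeded pistil 1DPP by 1.70 ± 0.47 (limma adjusted p = 0.0466), where 1.66% of all probes were called higher. The call was kept in 1 of the 7 refits that each left out 1 array, with estimates of 1.37 to 1.92 and adjusted p of 0.0384 to 0.152. Without centring the arrays it was 1.30 (adjusted p = 0.144). Between the pistil stages PYK10 differed by 0.03 ± 0.53 (95% interval -1.07 to 1.13), where 1.08% of all probes were called.

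BGLU21 gave another order of group means, which no test established. The pistil 1DPP arrays stood at -3.47, -4.52, -5.16 and -5.38, those of silique 3DPP at -2.62, -1.14 and -3.03, and the 2 of silique 8DPP at -3.71 and -4.82. The silique 3DPP mean, at -2.26, was the highest of these stages. Neither step passed the test: 3DPP against 1DPP gave 2.37 ± 0.70 (limma adjusted p = 0.056) and 8DPP against 3DPP -2.0 ± 0.84 (adjusted p = 0.098). Without pistil 1DPP array 1 the first step was 2.75 and called (adjusted p = 0.041).

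PYK10 minus BGLU21 on the same array averaged -3.93 in pistil 1DPP (n = 4) and -4.60 in silique 3DPP (n = 3), a difference of 0.66 that did not pass an exact two-sided permutation test (p = 0.514). In silique 8DPP (n = 2) it averaged 1.68, which is 6.27 above silique 3DPP, with an exact two-sided permutation p = 0.1, the smallest that these 5 arrays allow. BAN, a gene of the seed coat, stood at 4.24 in pistil 1DPP, 4.73 in silique 3DPP and 2.39 in silique 8DPP, and the root marker genes summed to -2.50 in silique 8DPP. The part of these cell types in the PYK10 difference was not tested.

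**Figure D2:**
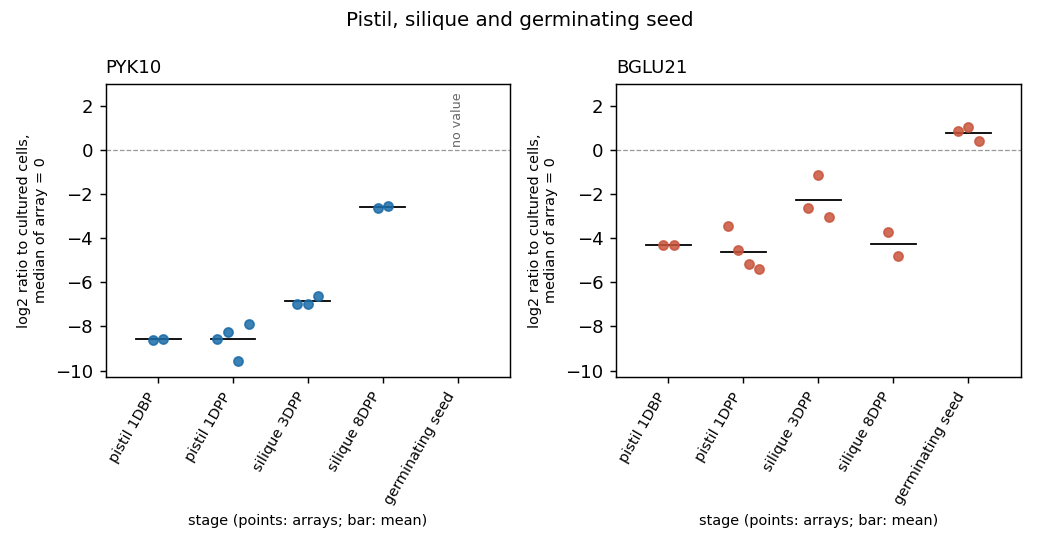
Log2 ratio to cultured cells for PYK10 (left) and BGLU21 (right) in pistil 1DBP, pistil 1DPP, silique 3DPP, silique 8DPP and germinating seed; points are arrays and bars are means. PYK10 lies highest in silique 8DPP, at -2.59, whereas BGLU21 lies there at -4.27 and reaches 0.75 in germinating seed.

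Germinating seed differed strongly from silique 8DPP, in opposite directions for 2 members. BGLU21 was 5.02 ± 0.84 higher in the seed (limma adjusted p = 1.28e-05), where 15.1% of all probes were called higher. BGLU40 was lower, by -5.35 ± 0.53 (adjusted p = 1.53e-09), where 26.9% were called lower. BGLU29 differed by -0.37 ± 1.06 and was not called.

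BGLU40, for which no role is stated here, departed furthest from cultured cells in germinating seed. Its 16 tested groups had 2 calls higher, 1 lower and 13 without a call. The germinating seed arrays gave -4.38, -3.85 and -5.49, a mean of -4.57 ± 0.34 (n = 3, limma adjusted p = 9.47e-14), which is 23.8-fold below cultured cells. In this comparison 29.4% of all probes were called lower. Group means elsewhere ran from -0.62 in dark root to 2.0 in dark hypocotyl, and no array outside germinating seed was below -1.12. Against dark cotyledon the seed was lower by -5.15 ± 0.47 (adjusted p = 2.2e-10), where 23.7% were called lower.

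The groups called higher for BGLU40 were dark hypocotyl, with arrays at 1.69 and 2.30 (mean 2.0 ± 0.41, limma adjusted p = 0.000123), and light cotyledon, at 1.76 and 1.87 (mean 1.81 ± 0.41, adjusted p = 0.00042). In light cotyledon 17.7% of all probes were called higher. These groups overlapped each other, and sepal came next in the order, with arrays at 1.27 and 0.66. From sepal down to dark root each group overlapped the next. Without centring, 7 groups instead of 2 were called higher, so the number of small BGLU40 differences that were called depends on the centring.

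BGLU29, also without a stated role here, was the least reproducible member. Its moderated SD between arrays of a group was 1.30, larger than that of 94% of all probes, against a median of 0.71 over all probes. PYK10, BGLU21 and BGLU40 had 0.62, 0.92 and 0.58. The light root arrays gave BGLU29 at 4.22 and -0.61, the dark root arrays at 0.77 and -1.79, and the germinating seed arrays at -0.68, -1.74 and 2.96.

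Of 14 groups tested, only dark cotyledon was called for BGLU29, with arrays at 1.47, 3.92 and 1.38 and a mean of 2.26 ± 0.75 (limma adjusted p = 0.0133). Without array 2 the mean was 1.43 and the adjusted p 0.225. All 3 rosette leaf arrays lay below cultured cells, at -2.53, -1.78 and -0.57, and their mean of -1.62 ± 0.75 was not called. Pistil 1DBP, silique 3DPP and dark hypocotyl had 1 value each, at 2.86, -0.02 and -0.64, and were not tested. In the order of the 17 group means, all neighbours overlapped but dark hypocotyl and cauline leaf.

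**Figure D3:**
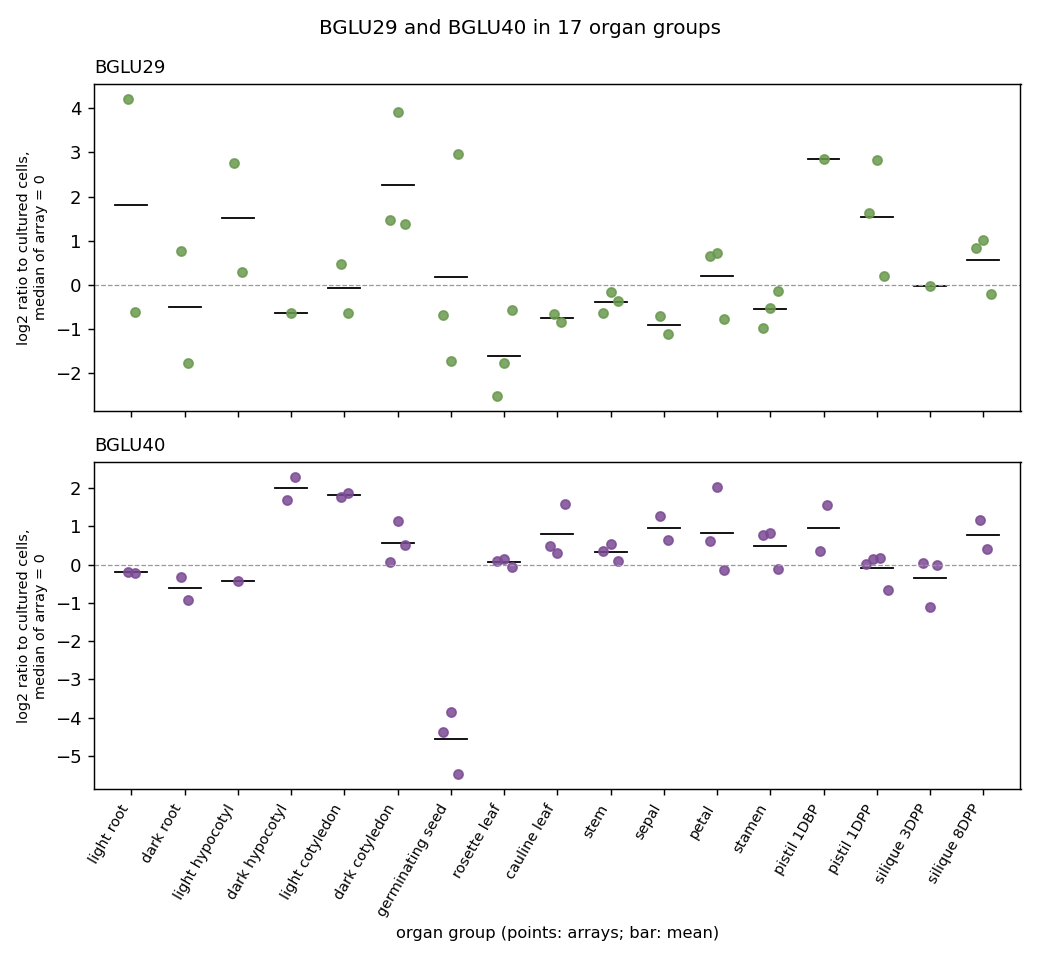
Log2 ratio to cultured cells, with each array's median at 0, for BGLU29 (upper) and BGLU40 (lower) in 17 organ groups; points are arrays and bars are means. BGLU40 drops to -4.57 in germinating seed alone, while BGLU29 arrays of 1 group lie far apart, as in light root at 4.22 and -0.61.

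Light and dark were compared in each seedling organ by 2 routes: through the common reference, and directly on 2 arrays per organ. Over all probes the routes correlated at 0.536 in cotyledon and 0.492 in root, and at -0.08 in hypocotyl. The direct hypocotyl arrays are therefore given by size with no direction. The 2 direct hypocotyl arrays correlated at 0.634 with each other, and the 2 light hypocotyl arrays against cultured cells at 0.626. Which route is at fault cannot be told, so values that rest on the light hypocotyl arrays are uncertain as well. In root PYK10 was higher in light by both routes. Through the reference the difference was 2.21 ± 0.62 (limma adjusted p = 0.0305), where 5.14% of all probes were called higher. The direct arrays gave 1.26 and 2.08, a mean of 1.67 ± 0.44 (adjusted p = 0.0122), where 4.81% were called higher.

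Both root calls for PYK10 were fragile. Through the reference PYK10 was not called without light root array p1 (1.86, adjusted p = 0.356), dark root array 2 (2.10, adjusted p = 0.211) or dark root array 1 (2.31, adjusted p = 0.0753). The light root arrays carry the same number with opposite channels and may be 1 RNA; as 1 sample the difference was again 2.21, with adjusted p = 0.15. Without direct array 2 the direct value was 1.26 (adjusted p = 0.521), and with arrays not centred the reference value was 1.86 (adjusted p = 0.121).

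BGLU21 in root was 2.52 ± 0.92 higher in light through the reference (95% interval 0.65 to 4.39, limma adjusted p = 0.101). The direct arrays gave 1.23 and 1.79, a mean of 1.51 ± 0.65 (0.19 to 2.83, adjusted p = 0.131). Neither route was called. Fitted together, the direct and reference arrays gave 1.85 (adjusted p = 0.0157). BGLU29 and BGLU40 were not called in root by either route, and their estimates by the 2 routes had opposite signs.

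In cotyledon the routes gave different pictures. Through the reference PYK10 was -1.54 ± 0.56 in light against dark (limma adjusted p = 0.1), BGLU21 -2.09 ± 0.84 (adjusted p = 0.137), BGLU29 -2.34 ± 1.19 (adjusted p = 0.288) and BGLU40 1.23 ± 0.53 (adjusted p = 0.177). None was called, where 8.08% of all probes were. On the direct arrays, where 11.4% of all probes were called, PYK10 stood at -0.13 and 0.27 and BGLU21 at -0.11 and 0.27, on either side of 0 for both genes. The direct minus reference difference was 1.60 ± 0.71 for PYK10 (adjusted p = 0.763) and 2.17 ± 1.06 for BGLU21 (adjusted p = 0.82), so a difference between the routes was not established. In root it was -0.54 ± 0.76 for PYK10 and -1.01 ± 1.12 for BGLU21 (adjusted p = 1 for both). Of all probes 0.00407% were called between the routes in cotyledon and 0.00890% in root.

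In hypocotyl only BGLU21 had enough values through the reference. The light arrays stood at -2.29 and -2.35 and the dark arrays at 2.26 and 2.0. The difference was -4.45 ± 0.92 (21.9-fold lower in light, limma adjusted p = 0.000279). The median of all probes tested in this comparison was 0.65, and 6.63% were called lower. On the direct hypocotyl arrays PYK10 differed by 1.62 and 1.49, a size of 1.56 ± 0.44 (adjusted p = 0.0111), where 16.7% of all probes were called. It was not called without either array, with adjusted p of 0.17 and 0.0983. Without centring the size was 0.96 (adjusted p = 0.106). BGLU21 differed by 0.47 and 0.75 on these arrays, with no call, far less than through the reference.

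The light responses themselves differed between organs through the reference. For PYK10 the response of root exceeded that of cotyledon by 3.74 ± 0.84 (limma interaction, adjusted p = 0.00693), where 4.50% of all probes were called higher; without light root array p1 it was 3.39 (adjusted p = 0.0555). For BGLU21 it was 4.61 ± 1.24 (adjusted p = 0.0208), and root exceeded hypocotyl by 6.97 ± 1.30 (adjusted p = 0.000531), where 3.55% were called higher. The BGLU21 difference between root and cotyledon was not called without light root array p1 (4.15, adjusted p = 0.124), dark root array 2 (4.23, adjusted p = 0.104) or either light cotyledon array (adjusted p of 0.0679 and 0.0682), nor with light root as 1 sample (adjusted p = 0.0648). The difference between root and hypocotyl was not called with these arrays compared alone (adjusted p = 0.0566). Between hypocotyl and cotyledon the BGLU21 responses differed by -2.36 ± 1.24 and were not called (adjusted p = 0.157), where 27.6% of all probes were. On the direct arrays, side by side, PYK10 gave 1.67 in root and 0.07 in cotyledon, and BGLU21 gave 1.51 and 0.08. In hypocotyl the direct arrays gave BGLU21 a size of 0.61, not called and with no settled direction.

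Marker levels differed between light and dark as well. The root marker genes summed to 5.75 in dark cotyledon and -4.96 in light cotyledon, and to 25.7 and 22.7 in light and dark root. In light cotyledon these genes ran from -4.31 to 0.47, with a median of -0.56, so the negative sum came mostly from 1 gene. The photosynthesis genes summed to 25.5 in light hypocotyl and 8.35 in dark hypocotyl. Their part in the member differences was not tested.

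**Figure D4:**
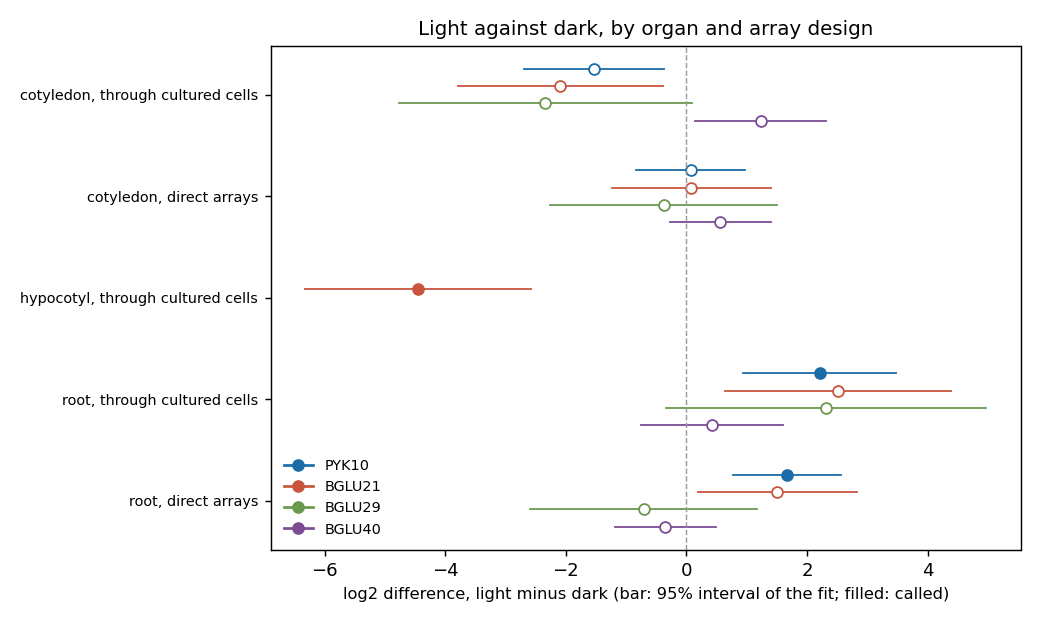
Log2 difference of light minus dark for the 4 genes in cotyledon, hypocotyl and root, through cultured cells or on direct arrays; points are estimates, bars are 95% intervals of the fit and filled points were called and the direct hypocotyl arrays, which have no settled direction, are not drawn. PYK10 in root is called by both routes, at 2.21 and 1.67, and BGLU21 in hypocotyl lies at -4.45.

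The other measured genes of the system were few, and their counts of called groups are descriptions. Of all probes 18.5% were called higher than cultured cells in light root and 20.1% in dark cotyledon. In rosette leaf 41.6% were called in either direction. The share called higher in leaf, stem, flower, silique and seed groups is not given here, so these counts cannot be set against it. Of 44 further beta-glucosidase genes 4 were measured. BGLU44, known to act on mannosides, was called higher than cultured cells in all 14 groups tested, with means from 3.26 in light root to 7.95 in rosette leaf. BGLU25 was called higher in 4 of 17 groups, with 1.41 in light root and 1.33 in cauline leaf as its highest means. BGLU46, which acts on glucosides of lignin precursors, was higher in 1 and lower in 4 of 15. The 2 BGLU16 probes disagreed, with a correlation of 0.178 over 17 groups, and gave 5 and 11 calls lower. In roots against the 12 other groups the BGLU16 probes again differed, at 1.27 ± 0.24 (limma adjusted p = 7.29e-05) and -0.88 ± 0.52 (adjusted p = 0.214), and BGLU25 was at 0.88 ± 0.23, under 2-fold. On the direct root arrays BGLU25 was 1.0 ± 0.31 higher in light (adjusted p = 0.0293).

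Of 20 genes of ER bodies and the PYK10 complex 3 were measured. JAL34, a jacalin-related lectin, was called higher than cultured cells in light root, at 1.99 ± 0.25 (limma adjusted p = 7.12e-08), and lower in 12 of 17 groups, down to -6.51 in silique 3DPP. Unlike PYK10, it was called lower in dark cotyledon, at -1.15 ± 0.21 (limma adjusted p = 1.63e-05). In dark hypocotyl, where PYK10 was called higher, JAL34 stood at -0.02. It was 6.04 ± 0.19 higher in roots than in the 12 other groups (adjusted p = 1.92e-22). In siliques JAL34 was 1.37 ± 0.33 higher at 8DPP than at 3DPP (adjusted p = 0.00363). In light against dark through the reference JAL34 was higher in root, by 1.19 ± 0.36 (adjusted p = 0.0369), and lower in cotyledon, by -1.39 ± 0.33 (adjusted p = 0.00399). On the direct arrays it stood at 0.82 ± 0.25 in root, under 2-fold, and at -0.11 ± 0.25 in cotyledon.

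JAL33, another lectin of that family, was called higher in germinating seed, at 2.01, and lower in light root, at -1.09. AT1G54010, a GDSL lipase-like gene, was called in germinating seed alone, at 2.02. On the direct root arrays AT1G54010 was lower in light, by -2.75 ± 0.63 (limma adjusted p = 0.00296), and through the reference it differed by -0.52 ± 0.88 and was not called (adjusted p = 0.811). Of 18 genes listed for glucosinolates and for coumarins and related compounds 3 were measured, none of them called lower than cultured cells in any group. These 3 do not stand for the indole glucosinolate or coumarin routes as such. UGT74B1, a glucosyltransferase of glucosinolate synthesis, was called higher in 10 of 16 groups, up to 3.32 in light root, and was 1.75 ± 0.27 higher in roots than in the 12 other groups (limma adjusted p = 2.87e-06). In cotyledon UGT74B1 was higher in light by both routes, at 2.15 ± 0.46 (adjusted p = 0.00177) and 2.26 ± 0.36 (adjusted p = 1.93e-05). PYK10 was not called in cotyledon by either route. BCAT4, of methionine-derived glucosinolate synthesis, was higher in 5 of 17, up to 2.38 in rosette leaf, and UGT72E1 was higher in 6 of 16.

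By Pearson correlation of group means among named genes with a value in all 17 groups, UGT85A2, JAL34 and ZW9 were the genes most like PYK10, at 0.941, 0.938 and 0.912 over 15 groups. There were 1536 candidates. The likeness to BGLU21 was highest for AT5G46900, JAL34 and ZW9, at 0.894, 0.862 and 0.844 over 17 groups. For BGLU40 it reached 0.773 with AT3G53830, followed by AT1G27200 and AT1G71710 at 0.748 and 0.747. For BGLU29 it reached 0.696 with AT5G25754, followed by AT2G22900 at 0.679 and AT5G61990 at 0.676. Group means share the reference, so these values are descriptions without a test.

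UGT85A2, a glycosyltransferase, had its highest means in dark hypocotyl, at 2.57, and light root, at 2.39, and its lowest in stem, at -2.47. Its range was much narrower than that of PYK10. ZW9 stood at 8.12 in light root and 4.72 in dark root. It was not limited to roots, with 6.37 in dark cotyledon, 6.31 in light cotyledon and 4.99 in rosette leaf. In pistil 1DPP the mean of ZW9 was -2.25, with arrays from -6.12 to 0.70. UGT85A2 and ZW9 also had values where PYK10 had none: 1.35 and 6.79 in germinating seed, and 1.75 and 3.62 in light hypocotyl.

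**Figure D5:**
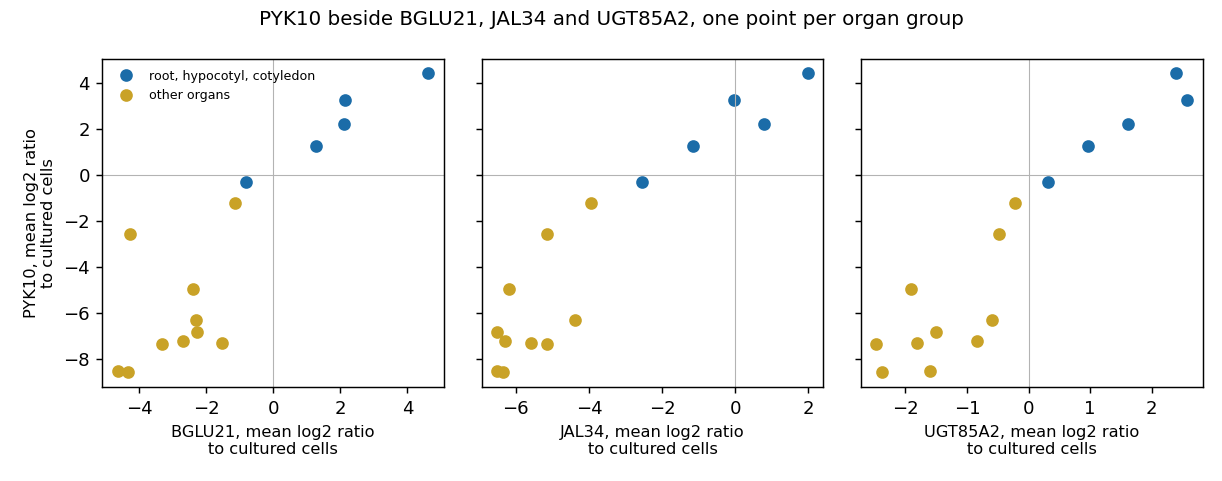
Mean log2 ratio of PYK10 to cultured cells (vertical) against that of BGLU21, JAL34 and UGT85A2 (horizontal), 1 point per organ group with both values; blue points are root, hypocotyl and cotyledon groups. Correlations are 0.884, 0.938 and 0.941, and silique 8DPP is the point of BGLU21 at -4.27 with PYK10 at -2.59.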

How the data were processed

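Two-colour arrays of Arabidopsis organs were analysed from the deposited table of log2 ratios, 1 column per array; scale was read from the values, and image analysis and normalization by the authors are not given in the sources used here. The deposited ratios go down to 0.001, in steps of 0.001, per the values below a ratio of 0.5. The labels assign each array to its group. 3 control sequences with 17 spots each were averaged, which left 27600 of 27648 probes. The gene table gives 1 symbol for 2032 probes, several for 644 and no entry for 24972. After 144 probes of genomic clones or shared accessions were left unnamed, 1840 named probes remained, and 1837 matched RefSeq.

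Each array was centred on its median and 1 mean per group was fitted over 20 groups (R 4.3.3, limma 3.58.1), with missing values left out. Organ groups were tested against 0, and roots, stages, light and related organs as differences. The fit was tested on simulated data. Genes named beyond the members are measured members of 3 gene lists and the 3 genes most correlated with each member. The members and lists were chosen with earlier results of these data known. Alternatives were no centring, centring on named probes, scaling to a common spread, probes with complete values, values at the lowest ratio left out, arrays compared alone, a replicate block and each array left out. The number of arrays limits the precision, as do missing values and, at the lowest ratios, the rounding step. The comparison of roots with 12 groups, of both light against dark routes, and light root as 1 sample were chosen after the data were seen.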

Additional observations from a re-analysis of the deposited data

Results flagged for a closer look

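The light responses of PYK10 and BGLU21 differed between seedling organs by a test of the difference itself, through the common reference. For PYK10 the response of root minus that of cotyledon was 3.74, and 3.39 without light root array p1. Its call was kept in 8 of the 9 refits that each left out 1 array. For BGLU21 it was 4.61, and root minus hypocotyl was 6.97. The first BGLU21 difference was not called with light root as 1 sample (limma adjusted p = 0.0648), nor the second with the arrays compared alone (adjusted p = 0.0566). On the direct arrays cotyledon and root differed in the same order for both genes, but that difference was not tested there. The direct hypocotyl arrays gave BGLU21 a size of only 0.61 ± 0.65 with no call, against -4.45 through the reference. The large difference between root and hypocotyl was thus seen by the reference route alone.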

How the results depend on the processing

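The levels of PYK10 and BGLU21 in light root, and the higher PYK10 level in silique 8DPP than in 3DPP, kept their direction and call under every alternative that gave a value. Leaving out values at the lowest ratio could not move a member's estimate, because no member value lay there. Without centring, PYK10 was 1.30 in silique 3DPP against pistil 1DPP and 1.86 in root light against dark through the reference, and 0.96 on the direct hypocotyl arrays, none of them called. BGLU40 in silique 8DPP against 3DPP (1.83) and BGLU29 on the direct hypocotyl arrays (-2.88) were then called, as were PYK10 in pistil 1DBP against petal and sepal (-1.84) and BGLU21 in germinating seed (1.75) and rosette leaf (-1.38); BGLU21 in petal (-0.83) was not. Signs turned without centring, near 0, for PYK10 in light cotyledon (0.024), BGLU29 in light cotyledon (0.24) and dark root (0.010), BGLU40 in rosette leaf (-0.17), pistil 1DPP (0.45) and 8DPP against 1DBP (0.43), BGLU21 in 1DPP against 1DBP (0.0035), and PYK10 and BGLU21 on the direct cotyledon arrays (-0.11 and -0.094). BGLU29 then had 3 groups higher and 1 lower, and BGLU40 had 7 higher. Centring on named probes gave BGLU40 5 groups higher, called PYK10 in pistil 1DBP against petal and sepal (-1.45) and BGLU40 in dark cotyledon against dark hypocotyl (-1.56), and turned BGLU29 in light cotyledon (0.064), BGLU40 in pistil 1DPP (0.14), and PYK10 and BGLU21 on the direct cotyledon arrays (-0.083 and -0.070).

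Scaling to a common spread made calls of PYK10 in cotyledon light against dark (-1.53), BGLU21 in root through the reference (2.90) and directly (2.62), BGLU40 on the direct cotyledon arrays (1.05), BGLU29 on the direct hypocotyl arrays (-3.48) and PYK10 in pistil 1DBP against petal and sepal (-2.69), and ended that of BGLU21 in petal (-1.22). It turned BGLU21 in 8DPP against 1DBP (-0.071) and in dark root against dark hypocotyl (0.50), and the PYK10 root difference between routes (0.28). With arrays compared alone, which leaves fewer arrays for the spread, estimates were unchanged but PYK10 lost its calls in 3DPP against 1DPP (1.70), 8DPP against 1DBP (6.0), root by both routes (2.21 and 1.67), direct hypocotyl (1.56) and stamen against petal and sepal (2.32). So did BGLU21 in light hypocotyl, cauline leaf, petal, pistil 1DBP against petal and sepal, and root minus hypocotyl light response (6.97), BGLU29 in dark cotyledon, and BGLU40 in dark root against dark hypocotyl. BGLU21 in cotyledon light against dark (-2.09) was then called, as were PYK10 in pistil 1DBP against petal and sepal, the BGLU21 hypocotyl minus cotyledon light response and BGLU29 in light root and rosette leaf, its 1 group lower. With light root as 1 sample the calls of PYK10 in root (2.21), the BGLU21 root minus cotyledon light response (4.61) and BGLU40 in light root against light cotyledon (-2.01) were lost. With direct and reference arrays in 1 fit the root difference was 1.85 for BGLU21, now called, and -0.093 for BGLU40. Restricting to probes with complete values left PYK10 with 5 groups lower in place of 9. Same-numbered arrays did not deviate together: over 33 pairs the correlation ran from -0.07 to 0.11, and none of the 5 comparisons with at least 3 pairs had all above 0.1. The replicate block, which uses numbers that do not pair the arrays, changed no call of the results given here; it turned BGLU40 in pistil 1DPP (0.18), PYK10 in 1DPP against 1DBP (-0.18) and BGLU21 in 8DPP against 1DBP (-0.088).

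Leaving out 1 array at a time gave 1.37 to 1.92 for PYK10 and 1.80 to 2.75 for BGLU21 in 3DPP against 1DPP, and for PYK10 1.86 to 2.56 in root through the reference, 1.26 to 2.08 directly and 1.49 to 1.62 in direct hypocotyl. Estimates spanning 0 were PYK10 in 1DPP against 1DBP (-0.20 to 0.36) and direct cotyledon (-0.13 to 0.27), and BGLU21 in direct cotyledon (-0.11 to 0.27), 8DPP against 1DBP (-0.51 to 0.60) and dark root against dark hypocotyl (-0.39 to 0.35). For BGLU40 they were direct hypocotyl (-0.74 to 0.44), 8DPP against 1DBP (-0.79 to 0.43), pistil 1DPP (-0.16 to 0.12), silique 3DPP (-0.56 to 0.024) and 3DPP against 1DPP (-0.48 to 0.10). For BGLU29 they were light cotyledon (-0.63 to 0.47), germinating seed (-1.21 to 1.14), petal (-0.066 to 0.68), dark root (-1.79 to 0.77), light root (-0.61 to 4.22), seed against 8DPP (-1.76 to 0.59), root light against dark through the reference (-0.10 to 4.74) and directly (-1.77 to 0.36), and direct cotyledon (-0.87 to 0.12). BGLU29 had 0 to 2 groups called higher. The cause of these changes was not tested.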
